A study of Mus musculus with 4 samples.

Results

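The sarcomere is the contractile unit of the heart muscle cell, and the 37 genes described here encode its parts and the proteins that anchor and maintain it. They were taken as every probe whose gene name on the array was one of 37 listed symbols. The rule itself uses no measured value, but the symbols were chosen with earlier results of these data known. Together the 37 genes had 77 of 56605 probes and were 37 of 37074 gene names on the array. In the sarcomere, thin filaments of actin carry tropomyosin and the troponin complex, which respond to calcium, and thick filaments of myosin pull on them. The thin filaments are anchored in the Z-disc, the thick filaments are held together at the M-band, and titin runs from one to the other as a spring. Many of these proteins are cardiac forms, and the switch from the α to the β myosin heavy chain and the expression of skeletal actin in ventricular muscle are known features of a stressed or fetal heart in rodents.

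The hearts came from female C57BL/6J mice aged 6 weeks, and RNA from 1 heart sample per condition, called a heart below, was hybridised to 4 single-colour arrays on the same slide. The series title speaks of cardiomyocytes, while the labels give whole heart tissue, and nothing says whether RNA of several mice was pooled. CY mice received 400 mg/kg of cyclophosphamide, an alkylating drug, by intraperitoneal injection on consecutive days. NAC + CY mice received the same cyclophosphamide with 200 mg/kg of N-acetyl cysteine, a thiol antioxidant, and Acrolein mice received 5 mg/kg of acrolein, a reactive aldehyde formed when cyclophosphamide is broken down. NS mice received normal saline, and hearts were taken 3 hours after the second dose. The methods describe a section of heart tissue without naming the chamber. The series text mentions 3 independent studies but each condition had 1 array, so no difference below has a replicate check, no p-value was computed, and a difference between arrays cannot be told apart from a difference between individual hearts or dissections.

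The level of a gene below is the log2 signal of its brightest detected probe after quantile normalisation of the 4 arrays, and a difference is a log2 ratio between a pair of arrays. A gene was called higher or lower where its ratio was at least 1.5 or at most 0.66 and its Z-score, the log2 ratio set against the 200 probes nearest in signal, reached 2 or -2. Across the arrays, at least 47.1% of probes were well above background and no spot was saturated. Repeated spots of 1 probe had an SD of 0.056 to 0.064 log2 units, which covers spotting and scanning only. All 37 brightest probes were detected on all 4 arrays, as were 68 of the 77 probes, while 6 probes were detected on none.

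Probes that carry the main differences are printed 5′ to 3′ in the sense of the transcript, with positions on mm9. The Acta1 probe (chr8:126416197-126416256, minus strand) and the Actc1 probe (chr2:113874011-113874934, minus strand, across a splice junction) read the skeletal and cardiac α-actins. The Ttn probe (chr2:76669859-76669918, minus strand) is the one with the lowest ratio among all probes of the 37 genes, and the Myh6 probe (chr14:55584132-55584191, minus strand) lies near the 5′ end of the transcript, from base 308. The capitals in the Tnni3 pair (chr7:4471129-4472051, across a junction, and chr7:4472043-4472102, both minus strand) mark the 9 bases that the probes share.
Acta1 probe: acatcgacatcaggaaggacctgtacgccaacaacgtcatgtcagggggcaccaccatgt
Actc1 probe: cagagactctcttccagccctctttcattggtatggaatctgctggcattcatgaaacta
Ttn probe: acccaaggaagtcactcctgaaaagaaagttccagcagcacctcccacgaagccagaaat
Myh6 5′ probe: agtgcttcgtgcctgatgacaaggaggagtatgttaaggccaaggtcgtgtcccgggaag
Tnni3 upstream probe: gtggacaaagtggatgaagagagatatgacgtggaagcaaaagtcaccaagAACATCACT
Tnni3 downstream probe: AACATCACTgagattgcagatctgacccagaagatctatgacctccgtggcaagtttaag

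On the CY array the sarcomere genes were mostly lower than on the NS array. Of the 37 genes, 9 were called lower and 0 were called higher, whereas 2.82% of all 19728 genes measured were called lower and 3.38% higher. The called genes were Acta1, Fhod3, Ttn, Fhl2, Xirp2, Actc1, Tcap, Pdlim5 and Mybpc3. The log2 ratio was below 0 for 31 genes and above 0 for 6, with a median of -0.48 and quartiles of -0.67 and -0.11, against a median of -0.02 over all genes measured. Among the 6771 genes whose probes were at least as bright as the dimmest of the 37, 2.82% were called lower and the median was also -0.02.

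**Figure D1:**
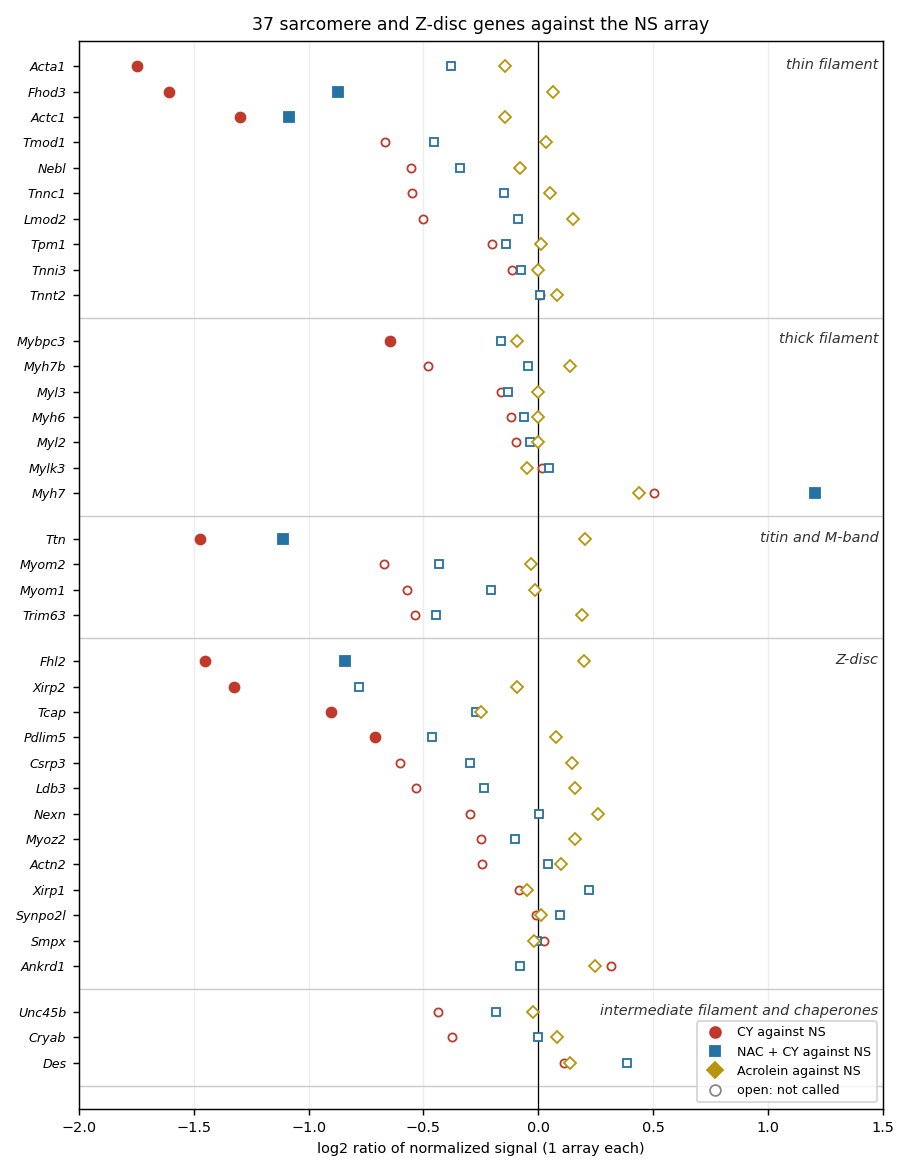
Log2 ratio to the NS array of the brightest probe of each of the 37 genes, grouped by place in the sarcomere, with circles for CY, squares for NAC + CY and diamonds for Acrolein, with 1 array per condition and filled symbols for called genes. The 9 filled circles run from -1.75 for Acta1 to -0.64 for Mybpc3, and the Acrolein diamonds lie between -0.25 and 0.44.

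Fewer of the genes were called on the NAC + CY array, and none on the Acrolein array. Against NS, NAC + CY had 4 of the 37 genes called lower (Ttn, Actc1, Fhod3 and Fhl2) and 1 called higher (Myh7), where 2.6% of all genes were called lower and 2.68% higher. The median log2 ratio of the 37 genes was -0.14, against -0.01 over all genes, and -0.31 against -0.03 with arrays scaled to their 75th percentile. Against NS, Acrolein had 0 of the 37 genes called in either direction, where 1.29% of all genes were called lower and 1.08% higher. Among the 6771 genes whose probes were at least as bright as the dimmest of the 37, 18 were called lower (0.27%) and 11 higher. At such shares 0 of 37 is not set apart from genes of like brightness. The median for Acrolein was 0.03, against 0.01 over all genes. These comparisons and the one of CY with NS share the NS array.

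Against the CY array itself, the NAC + CY array had 5 of the 37 genes called higher (Acta1, Fhod3, Myh7, Tcap and Fhl2) and 0 called lower, where 1.54% of all genes were called higher and 2.82% lower. The log2 ratio was above 0 for 34 of the 37 genes, with a median of 0.28 against 0.02 over all genes. The CY array is shared with the comparison of CY and NS. Over the 33 genes with no tied values, the CY array gave the lowest of the 4 signals for 28 genes, the Acrolein array for 2, the NAC + CY array for 1 and the NS array for 2. Over all genes detected on at least 1 array, the CY array gave the lowest signal for 32.1%.

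The makeup of the heart sample differed between arrays in markers of other cells, and in whole tissue fewer cells of a type and less RNA per cell cannot be told apart. All 9 heart muscle markers listed as ventricular were detected on every array, and their summed signal was 1155050 on CY, 1228268 on NAC + CY, 1308034 on Acrolein and 1265194 on NS. The list was not restricted to genes specific to the ventricle, and a sum follows the brightest probes. Of these markers, 8 had a CY ratio below 0, the median was -0.45, and 1, the calcium release channel gene Ryr2, was called lower on CY (-1.39) and on NAC + CY (-1.24). Irx4, another of them, had a CY ratio of -0.74 and Myl2 had -0.10, neither called. Myl2, Myh6 and Tnni3 are in both this list and the 37 genes. All 9 atrial muscle markers were called higher on CY than on NS, and their summed signal was 821947 on CY, 497170 on NAC + CY, 384308 on Acrolein and 308094 on NS. On the CY array 7 of 8 mesothelial and 6 of 6 platelet markers were also called higher, and on the NAC + CY array 5 of 5 measured hepatocyte, 5 of 8 measured atrial and 4 of 7 fat markers were called higher than on NS, and 4 of 4 measured red cell and 4 of 8 fibroblast markers lower. Of 10 smooth muscle and pericyte markers, 2 were called higher on CY than on NS, Tagln and Cnn1, and 2 lower, Acta2 and Pdgfrb. Against CY, NAC + CY had 7 of 9 atrial, 7 of 8 mesothelial, 5 of 6 platelet and 5 of 8 fibroblast markers called lower. In the same comparison 3 of 3 measured red cell and 3 of 10 smooth muscle and pericyte markers were called lower. There 5 of 5 measured hepatocyte and 4 of 7 fat markers were called higher. On the Acrolein array 7 of 8 mesothelial and 4 of 7 fat markers were called lower. Of 6 macrophage and neutrophil markers, S100a8 and S100a9 were called higher than on NS on the Acrolein, CY and NAC + CY arrays. Of the skeletal muscle markers, 11 were measured in CY against NS, with 6 below 0, 5 above 0 and a median of -0.37. Among these 2 were called higher, Pvalb (2.51) and Myl1 (1.80), and 0 lower. Pvalb and Myl1 were called lower on NAC + CY than on CY, while Myh1 and Myh2 were detected on no array. The part of these differences in the sarcomere results was not tested.

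The thin filament held the gene with the lowest ratio on CY. Acta1, the skeletal α-actin, which fetal and stressed hearts express, read 11.04 on CY, 12.40 on NAC + CY, 12.64 on Acrolein and 12.78 on NS. The CY heart stood apart from the other three hearts, which lay within 0.38 of each other. The CY signal was 0.297 of the NS signal (log2 ratio -1.75, Z-score -4.11), and the NAC + CY signal was 2.58 times the CY signal (log2 ratio 1.37, Z-score 5.09). The NAC + CY ratio to NS was -0.38 and was not called.

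Actc1, the cardiac α-actin of adult heart muscle, behaved differently on the NAC + CY array. It read 16.58 on CY, 16.79 on NAC + CY, 17.73 on Acrolein and 17.88 on NS. Both cyclophosphamide hearts were low, at log2 ratios to NS of -1.30 (Z-score -4.39) and -1.08 (Z-score -4.96), and NAC + CY differed from CY by 0.22, which was not called. Fhod3, a formin that elongates actin filaments in heart muscle, read 12.24 on CY, 12.98 on NAC + CY, 13.91 on Acrolein and 13.85 on NS. NAC + CY lay between the CY heart and the other hearts, with ratios to NS of -1.61 on CY and -0.87 on NAC + CY, both called lower, and 0.74 above CY, called higher.

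The other thin filament genes were not called in any comparison by their brightest probe. Tmod1, which caps the pointed end of the filament, had a CY ratio to NS of -0.67, Nebl, a nebulin relative that links thin filament and Z-disc, -0.56, Tnnc1, the calcium-binding troponin subunit, -0.55, and Lmod2, which lengthens thin filaments, -0.50. Tpm1, the tropomyosin that covers the myosin-binding sites, had a ratio of -0.20. The inhibitory and tropomyosin-binding troponin subunits Tnni3 and Tnnt2 had ratios of -0.11 and 0.01. The overlapping Tnni3 probes printed above gave CY ratios of -0.16 upstream and -0.11 downstream.

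The actins are encoded by genes with near-identical coding sequences, so the transcripts read by a coding probe are uncertain. Acta2, the smooth muscle α-actin, showed how probes of 1 actin gene can part. Its probe at base 335 of the transcript read 12.85 on CY, 13.10 on NAC + CY, 14.50 on Acrolein and 14.49 on NS, a CY ratio of -1.64, called lower. Its probe at base 1278 read 12.88 on CY, 11.70 on NAC + CY, 12.99 on Acrolein and 12.91 on NS, a CY ratio of -0.03. These probes were called lower on NAC + CY, at -1.40 and -1.22. Another Acta2 probe, at base 1641, had ratios of 0.02 on CY and -0.95 on NAC + CY, neither called. The probe at base 456 of Actg2, another smooth muscle actin, singled out after its values were seen, had ratios of -1.74 on CY and -1.40 on NAC + CY. Acta1 and Actc1 had 1 probe each, from bases 958 and 857. What cross-hybridisation among actins contributes was not tested. Actb, the cytoplasmic β-actin, had a CY ratio of 0.02. The probes of Actg1, the cytoplasmic γ-actin, parted on CY. Their ratios were 0.61 at base 10, -0.91 at base 624 and 0.25 at base 672, and only the probe at base 624 was called.

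**Figure D2:**
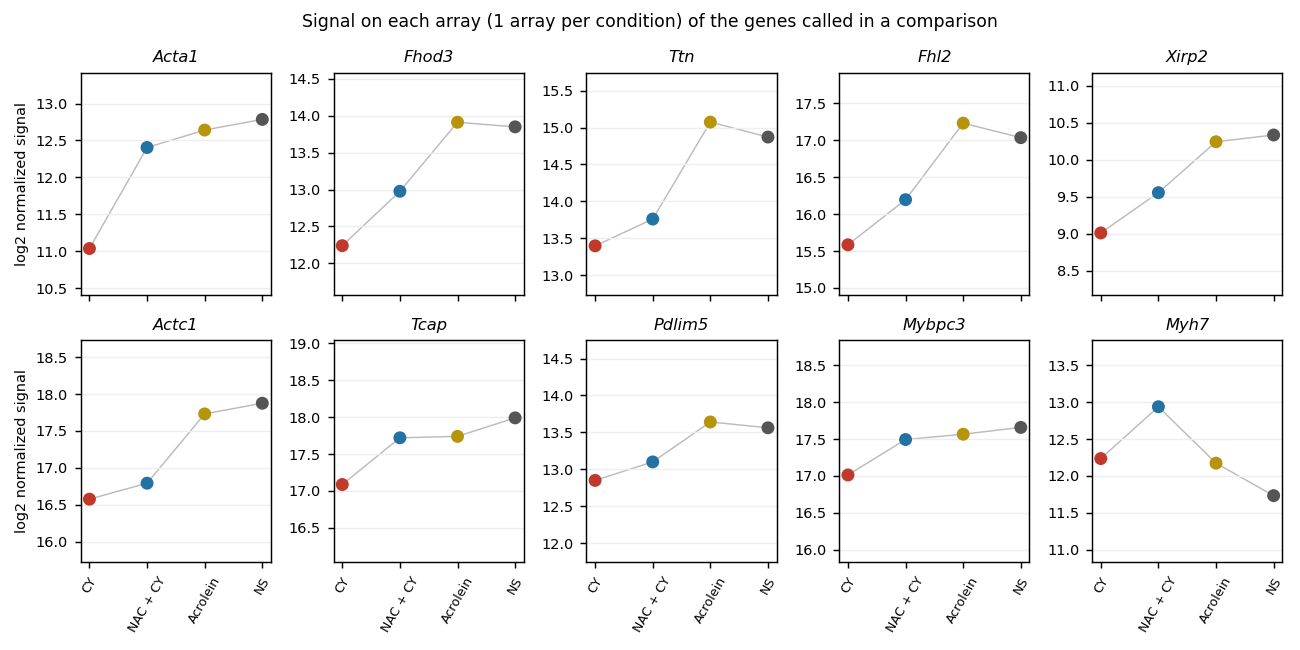
Log2 normalised signal of the 10 genes called in at least 1 comparison, on the CY, NAC + CY, Acrolein and NS arrays, with 1 point per array, a panel per gene and the same span on each vertical axis. In 9 panels the CY point is the lowest, and in the Myh7 panel the NAC + CY point is the highest, at 12.94.

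Among thick filament genes only Mybpc3 and Myh7 were called by their brightest probes. Mybpc3, the cardiac myosin-binding protein C that regulates cross-bridges, read 17.01 on CY, 17.49 on NAC + CY, 17.57 on Acrolein and 17.66 on NS. The CY heart was lowest, with a ratio of -0.64 and a Z-score of -2.15, close to the threshold, and the call was kept in 7 of 15 alternative settings. Myh7, the β myosin heavy chain that predominates in the fetal mouse ventricle, read 12.24 on CY, 12.94 on NAC + CY, 12.17 on Acrolein and 11.73 on NS. The NS heart was lowest. On NAC + CY it was called higher than on NS (2.30 times, log2 ratio 1.20, Z-score 3.49) and higher than on CY (1.63 times, log2 ratio 0.70). The CY ratio to NS of 0.50 had a Z-score of 1.46. The Acrolein ratio of 0.44 had a Z-score of 3.63 but was 1.36 times NS, below the ratio required, so neither was called.

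The abundant ventricular myosin genes were at the top of the signal range. The probes of the light chains Myl3 and Myl2, of Myh6, the α heavy chain of the adult mouse ventricle, and of Tnnt2 and Tnni3 ranked among the 30 brightest on the arrays. Their CY ratios ran from -0.16 to 0.01. With arrays scaled to their 75th percentile in place of quantile normalisation, they ran from -0.34 to -0.25, and the NAC + CY ratios from -0.30 to -0.18 in place of -0.13 to 0.01. At this end of the scale quantile values follow ranks, and the direction of Tnnt2 on CY and on NAC + CY turned from above 0 to below 0 with the scaling. Mylk3, the kinase of the cardiac light chain, had a CY ratio of 0.02.

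The probes of Myh6 disagreed. The probe at the 3′ end, from base 6003, had a CY ratio of -0.12, while the 5′ probe printed above read 11.80 on CY, 12.03 on NAC + CY, 12.47 on Acrolein and 12.76 on NS. It was called lower on CY (-0.95, Z-score -2.39) and on NAC + CY (-0.73, Z-score -2.30). Its Acrolein ratio of -0.29 had a Z-score of -2.83 without reaching the ratio required. Of the probes of Myh7b, an ancient myosin of slow and cardiac muscle, the probe from base 5696 had a CY ratio of -0.48 and the other was detected on no array. Myh8, listed among the skeletal muscle markers, was likewise read by a single bright probe, from base 5937. That probe read 16.28 on CY and 16.82 on NS, a ratio of -0.55, and the other Myh8 probes were detected on no array. Sarcomeric myosin heavy chains share long near-identical stretches, and what cross-hybridisation contributes to the myosin probes was not tested.

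**Figure D3:**
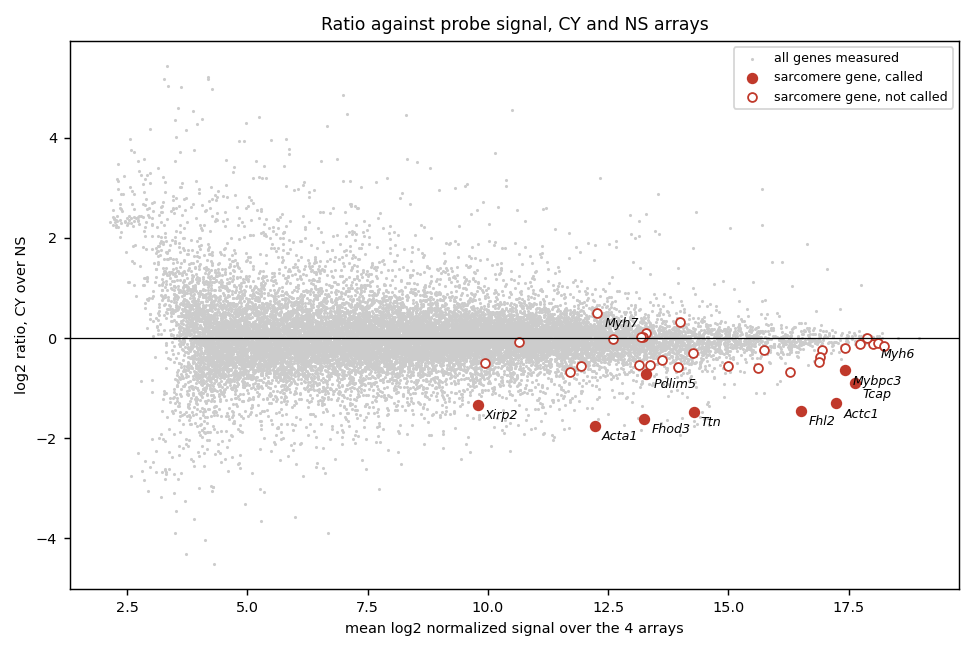
Log2 ratio of CY over NS against the mean log2 normalised signal over the 4 arrays, for all 19728 genes measured (grey) and the 37 sarcomere genes (red, filled where called). The called sarcomere genes spread over the signal range from Xirp2 at 9.79 to Tcap at 17.6, and the brightest, among them Myh6, lie near 0.

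The probes of titin also differed in size of ratio. The brightest Ttn probe, at the 3′ end, read 13.40 on CY, 13.76 on NAC + CY, 15.07 on Acrolein and 14.87 on NS. Both cyclophosphamide hearts were low (ratios of -1.47 and -1.11, both called lower), and Acrolein was at 0.20. Moving upstream along the gene, the CY ratios of its 6 probes were -1.47, then -1.57 at 0.578 kb, -2.25 at 128 kb, -0.83 at 132 kb, -0.86 at 210.1 kb and -0.42 at 260 kb. The first 3 were called lower on CY and on NAC + CY and the 3 farthest upstream on neither. The probe at 128 kb is the sequence printed above and read 6.93 on CY, 7.46 on NAC + CY, 9.24 on Acrolein and 9.18 on NS. The probes belong to different annotated titin transcripts, so isoform, position and probe chemistry cannot be told apart in these ratios.

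No M-band gene was called on CY by its brightest probe. Myom2, a myomesin that bridges thick filaments, had a CY ratio of -0.67 with a Z-score of -1.95, just short of the threshold, and its relative Myom1 had -0.57. A second Myom2 probe, of an Ensembl transcript, read 3.81 on CY, 5.29 on Acrolein and 5.02 on NS and was not detected on NAC + CY. Its CY ratio of -1.21 had a Z-score of -1.54 and was not called. Trim63, the ubiquitin ligase MuRF1, which turns over sarcomere proteins, had CY ratios of -0.54, -0.52 and -0.60 over its 3 probes.

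At the Z-disc 4 of 13 genes were called lower on CY. Fhl2, a LIM protein that binds titin, read 15.58 on CY, 16.20 on NAC + CY, 17.23 on Acrolein and 17.04 on NS. CY and NAC + CY were called lower than NS (-1.45 and -0.84), and NAC + CY was called higher than CY by 0.61, a call kept in 10 of 15 alternative settings, with a lowest ratio of 0.49. Xirp2, an actin-binding protein of the Z-disc and intercalated disc, read 9.01 on CY, 9.55 on NAC + CY, 10.24 on Acrolein and 10.34 on NS. Only CY was called, at -1.33, while NAC + CY was at -0.78 with a Z-score of -1.82. Its relative Xirp1 had a CY ratio of -0.08.

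Tcap, telethonin, which caps the end of titin in the Z-disc, read 17.09 on CY, 17.72 on NAC + CY, 17.74 on Acrolein and 17.99 on NS. CY was called lower than NS (-0.90), NAC + CY was called 0.63 higher than CY (kept in 9 of 15 settings, lowest ratio 0.49), and the Acrolein ratio of -0.25 had a Z-score of -2.70 but missed the ratio required. Pdlim5, an α-actinin-binding scaffold, read 12.85 on CY, 13.10 on NAC + CY, 13.64 on Acrolein and 13.56 on NS, a CY ratio of -0.71, called lower. The probes of Pdlim5 differed in sign. A second probe of the same transcript had -0.69, whereas a probe for another transcript read 8.45 on CY, 8.62 on NAC + CY, 7.33 on Acrolein and 7.30 on NS and was called higher on CY (1.16) and on NAC + CY (1.32).

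The rest of the Z-disc genes were not called. On CY, Csrp3, the muscle LIM protein, had a ratio of -0.60 and Ldb3, the scaffold ZASP, -0.53. Nexn, a filamentous actin binder, had -0.30, Myoz2, a calcineurin-binding protein, -0.25 and Actn2, the α-actinin that cross-links thin filaments, -0.24. Synpo2l was at -0.01 and Smpx at 0.02. Ankrd1, a titin-binding protein that also acts in the nucleus and is induced by stretch, was highest on CY at 14.20, against 13.80 on NAC + CY, 14.12 on Acrolein and 13.88 on NS. Its CY ratio to NS was 0.32, and its ratio of -0.40 on NAC + CY relative to CY had a Z-score of -2.20 without reaching the ratio required. Among the filament and chaperone genes, Des, the desmin of the intermediate filaments around the Z-disc, was at 0.11 on CY and 0.39 on NAC + CY. Cryab, a small heat shock protein that binds desmin, was at -0.38 on CY, and Unc45b, the myosin chaperone, at -0.44.

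**Figure D4:**
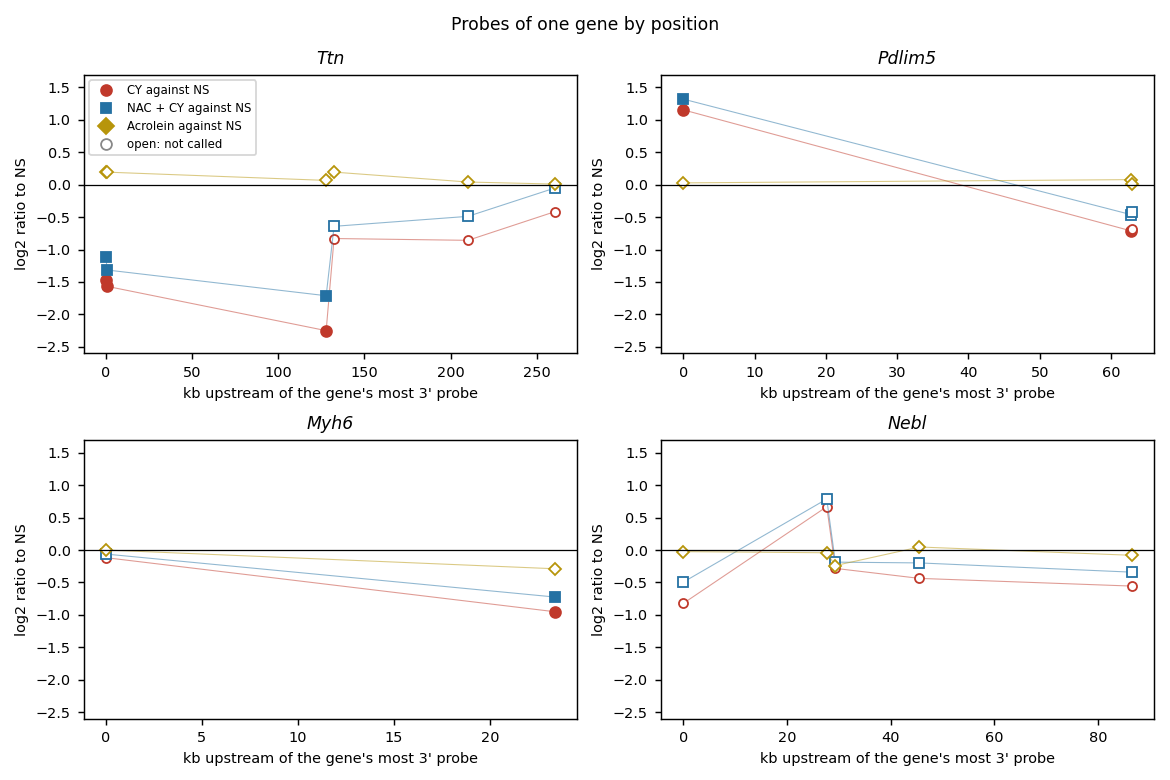
Log2 ratio to NS of every measured probe of Ttn, Pdlim5, Myh6 and Nebl against its distance in kb upstream of the gene's most 3′ probe, with circles for CY, squares for NAC + CY and diamonds for Acrolein, 1 array each, filled where called. The Ttn circles run from -2.25 to -0.42, and the Pdlim5 probe at 0 kb lies above 0 at 1.16 while the others lie below.

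Over all probes of the 37 genes, 70 were measured in CY against NS, of which 12 were called lower and 1 higher, where 2.56% of all probes were called lower and 2.84% higher. In 19 genes with at least 2 measured probes, all probes were below 0 in 12, all above 0 in 1 and signs were mixed in 6. In NAC + CY against NS 8 of 71 probes, the second Myom2 probe among them, were called lower and 2 higher (2.28% and 2.32% of all probes), and in Acrolein against NS 0 of 70 were called (1.24% lower and 1.05% higher of all probes). In NAC + CY against CY 0 of 71 were called lower and 5 higher (2.34% and 1.25% of all probes). The mixed genes included Nebl, whose 5 measured probes had CY ratios from -0.82 to 0.67, and Tpm1, whose 3 probes detected on both arrays ran from -0.52 to 0.10. Another Tpm1 probe, detected on CY but not on NS, had a ratio of 0.92. None of these Nebl and Tpm1 probes was called.

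Sarcomere genes outside the 37 moved in both directions on CY. From a list of 80 other symbols, in which Kbtbd10 and Klhl41 name the same gene, 73 were measured. Of these, 8 were called lower and 7 higher, with a median of -0.22, where 2.82% of all genes were called lower and 3.38% higher. Those higher were led by Pdlim3, an α-actinin-associated LIM protein (1.93), and by Myl4, the atrial essential light chain (1.87), Myl1, a skeletal light chain (1.80), Mybphl, a myosin-binding protein H-like gene of the atria (1.61), and Myl7, the atrial regulatory light chain (1.52). Myl4 read 17.73 on CY, 16.75 on NAC + CY, 16.19 on Acrolein and 15.86 on NS, so the CY heart was highest, and Myl7 read 16.77 on CY, 15.90 on NAC + CY, 15.67 on Acrolein and 15.25 on NS, in the same order. Those lower were led by Mylk4, a myosin light chain kinase family member (-1.82), and Acta2. Mylk4 read 10.36 on CY, 11.52 on NAC + CY, 12.24 on Acrolein and 12.18 on NS, and was called 1.16 higher on NAC + CY than on CY. Mybpc2, the fast skeletal myosin-binding protein C, was called lower on CY at -1.08. Against CY, NAC + CY had 7 of 75 measured genes of this list called lower, Myl4, Myl7, Myl1, Mybphl and Pdlim3 among them, and 2 higher, where 2.82% of all genes were called lower and 1.54% higher.

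Of 33 listed symbols of genes that control sarcomere genes or report cardiac stress, 31 were measured in CY against NS. The symbols not measured, Mrtfa and Mrtfb, are other names of Mkl1 and Mkl2, which were measured. Of the 31, 2 were called lower and 2 higher, where 2.82% and 3.38% of all genes were. Tead1, a factor that binds the M-CAT element, read 10.34 on CY, 10.88 on NAC + CY, 11.72 on Acrolein and 11.38 on NS, with a CY ratio of -1.05. Qk, an RNA-binding protein that acts in splicing, had -0.89. Those higher were Hand2, a cardiac basic helix-loop-helix factor (1.04), and Nppa, the atrial natriuretic peptide (1.05), which is also among the atrial markers above. Srf, the serum response factor that binds CArG boxes, had 0.44 and Mef2c -0.69, neither called. Gapdh, a reference gene, had 0.05. In NAC + CY against NS 1 of 31 measured genes of the list was called lower, Nppb, and 2 higher, Hand2 and Nppa, where 2.6% and 2.68% of all genes were. Nppb, another natriuretic peptide gene, was at -1.78 on NAC + CY against NS and 0.05 on CY. It was also called lower on NAC + CY than on CY, at -1.83.

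Promoter sequence was at hand for 31 of the 37 genes, as the 250 bases before each RefSeq transcript start on GRCm38.p6. These 31 held 7 of the genes called lower on CY, as no promoter was at hand for Fhod3 and Tcap. A CArG box on either strand was found before 7 of the 31 genes (22.6%) and before 1.62% of all 27025 genes. The 7 were Acta1, Actc1 and Fhl2, which were called lower on CY, and Ldb3, Myl3, Myom1 and Nebl, which were not. A MEF2 site was found before 5 genes (16.1%, against 0.592% of all genes), namely Mybpc3, Ttn and Xirp2, called lower, and Myoz2 and Synpo2l, not called. The M-CAT letters CATTCC on either strand were found before 12 genes (38.7%, against 14.4%), of which 1, Acta1, was called lower. E-box letters (CANNTG) were found before 27 genes (87.1%, against 69.3%), 6 of them called lower. GATA letters (AGATAA) were found before 9 (29.0%, against 11.4%), 1 of them called lower. TATA box letters, sought on the printed strand only, were found before 2 (6.45%, against 8.94%), 1 of them called lower. These matches are letters in a window and were not tested as binding sites. The promoters of both α-actins are shown because these genes parted on the NAC + CY array. The capitals mark the CArG box in both and, in Acta1, also CATTCC and the TATA box letters TATAAA on the printed strand, and no base belongs to more than 1 of them. The Acta1 window is chr8:123894776-123895025 and the Actc1 window chr2:114052876-114053125, both on the minus strand, and the CArG boxes begin 73 and 47 bases before the start.
Acta1 promoter: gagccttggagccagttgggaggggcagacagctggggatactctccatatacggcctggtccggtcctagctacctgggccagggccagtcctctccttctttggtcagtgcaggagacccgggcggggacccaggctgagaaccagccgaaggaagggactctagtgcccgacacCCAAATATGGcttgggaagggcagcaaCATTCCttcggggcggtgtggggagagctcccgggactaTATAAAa
Actc1 promoter: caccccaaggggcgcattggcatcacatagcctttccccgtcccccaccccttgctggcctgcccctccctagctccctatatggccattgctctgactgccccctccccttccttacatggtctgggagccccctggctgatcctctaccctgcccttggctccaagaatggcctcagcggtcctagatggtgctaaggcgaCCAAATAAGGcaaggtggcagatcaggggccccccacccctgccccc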

How the data were processed

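RNA of 4 heart samples, 1 per condition, was labelled with Cy3 and hybridised to Agilent mouse arrays. The authors extracted the deposited spot intensity values with Agilent Feature Extraction (10.7.1.1 per the file headers, 9.5.1.1 in the submitters' processing notes), which subtracts background. The deposited signal table holds the same values after quantile normalisation by the authors and served as an alternative. From the processed intensities of 59305 spots per array, log2 values were quantile-normalised over the 4 arrays (the methods list each treated sample with the control; quantile normalisation over the 2 arrays compared was an alternative), spots of a probe were averaged, and a probe entered a comparison if detected (positive, well above background, not saturated, not an outlier) on at least 1 of its arrays. Intensity-based Z-scores and thresholds follow the study's methods, which give no window; the 200 probes nearest in signal were chosen here. The calling was tested on simulated data with changed probes above a log2 signal of 9, near that of the dimmest of the 37 genes. That limit was set after a draw at any signal had recovered fewer 4-fold decreases than the test required. With changed probes drawn at any signal, fewer 2-fold changes were recovered. The simulated noise was that of the Acrolein and NS pair. Among the probes nearest the 37 genes in signal, the median SD of log2 ratios was 0.10 for that pair. It was 0.35 for CY against NS, 0.32 for NAC + CY against NS and 0.23 for NAC + CY against CY. Recovery at these wider spreads was not tested.

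A gene stood for its brightest detected probe. Genes called in any comparison are given with all signals, genes whose probes disagree with each probe, and others by ratio. Probe positions are those of the files (mm9). RefSeq accessions matched for 57 of 77 probes, each with the same symbol. The 37 genes and all lists were chosen with earlier results of these data known. There were 4 comparisons and 15 alternative settings, in Python 3.11.15 and, for normexp background correction (offset 50), limma 3.58.1. The number of arrays limits precision. The sources differ on the age of the mice and, in places, on the time after dosing; the labels' values are used.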

Additional observations from a re-analysis of the deposited data

How the results depend on the processing

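The direction of the median log2 ratio was kept in the comparisons of CY and of NAC + CY with NS, and of NAC + CY with CY, under all settings that change it. Scaling arrays to their 75th percentile, which leaves all genes at -0.03 in both comparisons with NS, gave medians of -0.62 for CY and -0.31 for NAC + CY against NS. Without normalisation, where all genes stood at 0.15, the CY median was -0.44. Over the 15 alternatives the CY array had 5 to 12 of the 37 genes called lower than NS and 0 higher, NAC + CY had 2 to 5 lower and 1 higher than NS, and Acrolein had 0 called. A Z-score of 3 left 5 genes lower on CY, 2 lower on NAC + CY, and 1 higher on NAC + CY than on CY. A ratio of 2 left 2 lower on NAC + CY than on NS and 1 higher on NAC + CY than on CY. That last count was 3 with 75th-percentile scaling, without normalisation, or from the deposited table. Acta1, Actc1, Fhl2 and Fhod3 were called lower on CY, and Myh7 higher on NAC + CY, in all 15 alternatives, Mybpc3 in 7 and Pdlim5 in 10, and of the calls of NAC + CY over CY, Fhl2 in 10 and Tcap in 9. The 10 genes called in at least 1 comparison gave 600 single-gene values over the 4 comparisons and 15 alternatives. These include comparisons in which the gene was not called at the main setting. Of the 600, 561 stayed on their side of the call, 37 lost it, 2 gained it and none changed sign while called. Sarcomere genes called in no comparison are left out of this count. No paired analysis was possible because each condition had 1 array. Dim probes and probes at the top of the range limit what a ratio can show.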
